A study of Mus musculus with 16 samples.

Results

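The 31 genes described here encode the protein folding and quality control machinery of the endoplasmic reticulum (ER): the sensors of the unfolded protein response, chaperones, disulfide isomerases, parts of ER-associated degradation (ERAD) and the translocation channel. They were chosen by name as genes of the ATF6 and XBP1 branches of the response, its sensors and parts of ERAD. Targets of ATF4 were left out. The rule uses no measured value, but earlier results of these data were known, so that the choice is not independent of the data. All 31 are among the 20295 genes of the count table, and all 31 are among the 12786 genes that passed a filter on low counts. They took 0.57% to 1.04% of the counts in a sample.

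The RNA-seq samples come from mouse brown preadipocytes, wild type and immortalized with SV40 large T antigen, that were differentiated in culture to day 7. Lipolysis was started with SR-3420, a ligand of ABHD5 that activates the lipase ATGL. Triacsin C (TC, an inhibitor of long-chain acyl-CoA synthetases, spelled Triascin C in the labels) and etomoxir (ETO, an inhibitor of CPT1) served to tell lipolysis apart from later steps in the use of the released fatty acids.

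The 6 groups share the cell line and the day. Vehicle (n = 2) received DMSO and neither an inhibitor nor SR-3420, and SR-3420 (n = 2) received 10 µM SR-3420 for 3 h. This dose is that of the labels, and the study's figure legend gives a higher one. TC (n = 3) and ETO (n = 3) received 5 µM triacsin C and 50 µM etomoxir, with 1 h of pretreatment before the 3 h of stimulation, and no SR-3420. TC+SR-3420 (n = 3) and ETO+SR-3420 (n = 3) received the same inhibitors and 10 µM SR-3420 for those 3 h. The 16 samples hold 9452861 to 25670624 counts each. Levels are given as CPM, the counts scaled to the same sample total after TMM normalization, and the values of a group follow the replicate numbers of the labels, which are 2 and 3 for vehicle and 1 and 3 for SR-3420.

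The ER membrane holds the sensors of unfolded protein, namely ATF6, IRE1 (the product of Ern1) and PERK (the product of Eif2ak3). ATF6 is cut in the Golgi to release a transcription factor, IRE1 splices the Xbp1 transcript so that it encodes an active factor, and PERK phosphorylates eIF2α, which slows translation and favours ATF4. The factors from ATF6 and XBP1 are known to raise chaperones and ERAD genes, and ERAD carries misfolded proteins back to the cytosol for breakdown by the proteasome.

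The label of brown adipocytes was read against marker genes. All 5 adipocyte markers (Adipoq, Fabp4, Plin1, Pparg and Lipe) were present in each of the 16 samples, with Fabp4 the most abundant at 3030 to 9220 CPM. Their summed level was 13750 and 12570 CPM with vehicle, 10480 and 9672 with SR-3420, 14260, 15120 and 14850 with TC, 5566, 5628 and 5927 with TC+SR-3420, 13340, 12180 and 13510 with ETO, and 7122, 5254 and 8815 with ETO+SR-3420. The sum was thus lower in every SR-3420 sample than in every sample of its control group, and 1 of the 5 (Pparg) passed the test as lower without inhibitor, 4 in TC+SR-3420 against TC and 4 in ETO+SR-3420 against ETO. Pparg was also called lower in TC against vehicle, and Plin1, Adipoq and Lipe in TC+SR-3420 against SR-3420 (4 of the 5 by DESeq2). The brown markers were low, with Ucp1 at 0.461 to 3.66 CPM and Dio2 at 0 in 12 of the 16 samples, and Ppargc1a was the most abundant of the 5. They summed to 87.2 and 71.6 CPM with vehicle, 115 and 97.7 with SR-3420, 55.8, 73.6 and 62.7 with TC, 51.4, 56.8 and 49.5 with TC+SR-3420, 86.0, 86.9 and 107 with ETO, and 70.3, 67.2 and 117 with ETO+SR-3420. Ppargc1a was called lower in TC against vehicle (log2 fold change -1.038, adjusted p = 0.0196) and in TC+SR-3420 against SR-3420 (-1.295, adjusted p = 0.0138), and Elovl3 in TC+SR-3420 against TC. Of 5 preadipocyte and fibroblast markers, 3 were higher in TC+SR-3420 against TC and 3 in ETO+SR-3420 against ETO. DESeq2 called 1 higher without inhibitor, 4 under TC and 4 under ETO. Among these 5 markers Thy1 had the highest median. Their sum was 139 and 127 CPM with vehicle, 218 and 193 with SR-3420, 194, 167 and 152 with TC, 314, 247 and 225 with TC+SR-3420, 154, 132 and 105 with ETO, and 255, 231 and 168 with ETO+SR-3420. Of 4 macrophage markers the most abundant was Cd68, at 3.23 to 16.5 CPM, and Emr1 was at 0 in 7 samples. The summed macrophage level was 16.2, 17.9 and 16.9 CPM with TC and 3.97 to 9.90 in the other groups. The 3 endothelial markers summed to 1.097 and 1.291 CPM with vehicle, 1.71 and 1.84 with SR-3420, 0.86, 1.64 and 1.90 with TC, 2.43, 3.29 and 1.97 with TC+SR-3420, 1.119, 1.974 and 0.9114 with ETO, and 2.77, 2.99 and 2.65 with ETO+SR-3420, and Kdr was called higher in TC+SR-3420 against TC and in ETO+SR-3420 against ETO. Cd68 was called higher in TC against vehicle and lower in TC+SR-3420 against TC. These markers move with SR-3420 or with TC, as some ER genes do, and their part in the results for the members was not tested. In bulk samples, fewer cells of a type and less RNA per cell cannot be told apart.

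Some members, 12 of the 31 (38.7%), have in front of the gene an element of the branches by which the members were chosen, so that the element is not independent of the choice. The ER stress response element (ERSE), described from promoters of chaperone genes, is CCAAT and, 9 bases on, CCACG, and ERSE-II is ATTGG, 1 base and CCACG. Both were searched on both strands of the 250 bases upstream of each deposited gene start in the NCBIM37 (mm9) genome. An ERSE was found for 9 of the 31 members (29%) and for 27 of all 20295 genes (0.133%). An ERSE-II was found for 3 members (9.68%) and for 10 of all genes (0.0493%). TGACGTGG, the core of the UPR element, was found for 1 member (3.23%), Hyou1, and for 125 of all genes (0.616%). The 12 members with either ERSE are Hspa5, Hsp90b1, Dnajc3, Creld2, Pdia6, Calr, Canx, Syvn1 and Derl3 with ERSE, of which Hsp90b1 has 2, and Hyou1, Manf and Herpud1 with ERSE-II, of which Hyou1 has 2. None of the 4 sensors and transducers (Atf6, Ern1, Eif2ak3 and Xbp1) and neither translocon gene has either element in this window. A match describes these letters only, and no match says only that they are not in this window.

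These sequences upstream of the deposited starts were read from the mm9 genome on the plus strand, on which all 6 genes lie, with the matched elements in capitals. Hspa5, Hyou1 and Herpud1 passed the test as higher with SR-3420 and Derl3 as lower, so their sequences show matches in front of genes that moved each way, and Dnajc3 and Syvn1 carry an ERSE and did not pass the test in any comparison. They lie at chr2:34627440-34627609 (Hspa5), chr9:44187403-44187572 (Hyou1), chr8:96910230-96910337 (Herpud1), chr10:75355973-75356142 (Derl3), chr14:119336984-119337153 (Dnajc3) and chr19:6046406-6046575 (Syvn1). Each runs from 170 bases before the deposited start up to it, except that of Herpud1, which ends 63 bases before it because the annotation has the last 62 bases in an exon of a coding transcript of Herpud1. The last 120 bases for Hspa5, with the element, lie in an annotated exon of a transcript of Hspa5 that is not listed as coding, so that they are not promoter alone. In Hspa5 the element lies 65 to 47 bases before the start, and in Hyou1 one of the ERSE-II copies overlaps TGACGTGG, so that both are covered by a single run of capitals.
Hspa5: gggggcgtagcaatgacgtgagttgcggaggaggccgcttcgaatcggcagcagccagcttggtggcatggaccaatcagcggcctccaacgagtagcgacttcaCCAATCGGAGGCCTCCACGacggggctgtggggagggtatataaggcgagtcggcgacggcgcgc
Hyou1: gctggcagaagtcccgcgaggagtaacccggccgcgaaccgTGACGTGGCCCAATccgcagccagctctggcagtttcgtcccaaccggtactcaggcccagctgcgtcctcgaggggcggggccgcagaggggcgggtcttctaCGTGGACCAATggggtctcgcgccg
Herpud1: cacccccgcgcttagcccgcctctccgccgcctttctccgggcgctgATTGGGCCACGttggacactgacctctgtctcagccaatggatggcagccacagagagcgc
Derl3: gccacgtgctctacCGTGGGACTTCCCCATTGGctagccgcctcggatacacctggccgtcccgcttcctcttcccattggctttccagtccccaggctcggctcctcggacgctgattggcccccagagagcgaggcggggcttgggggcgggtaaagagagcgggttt
Dnajc3: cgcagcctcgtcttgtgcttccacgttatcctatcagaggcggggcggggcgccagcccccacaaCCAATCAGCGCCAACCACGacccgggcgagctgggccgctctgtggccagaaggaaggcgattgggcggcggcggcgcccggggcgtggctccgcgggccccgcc
Syvn1: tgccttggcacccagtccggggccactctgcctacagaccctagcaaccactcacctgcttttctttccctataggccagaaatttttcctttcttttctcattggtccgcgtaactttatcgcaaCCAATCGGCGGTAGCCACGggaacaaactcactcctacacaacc

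SR-3420 was compared with its control without inhibitor, under TC and under ETO. A gene is called higher or lower where the adjusted p is under 0.05 (edgeR's quasi-likelihood test, Benjamini-Hochberg over 12786 genes), and fold changes are log2 values (log2FC) with their standard error. Without inhibitor, 4 of the 31 members were higher with SR-3420 against 4.75% of all genes, and 0 were lower against 2.79% (by edgeR 2 members were lower at an unadjusted p under 0.05, and DESeq2 called 0 lower). The members' median log2FC was 0.05, beside -0.00 over all genes. Under TC, 6 members were higher against 17.3% of all genes and 1 was lower against 19.7%, with a median of 0.16 beside 0.02. Under ETO, 5 members were higher against 12.5% of all genes and 2 were lower against 12.8%, with a median of 0.17 beside 0.01. Under TC the members' share was near the background for higher genes and under it for lower genes. The members not called numbered 27 without inhibitor, 24 under TC and 24 under ETO. Without inhibitor the count of 4 fell to 1 without vehicle replicate 3 or SR-3420 replicate 3, to 2 without vehicle replicate 2 or SR-3420 replicate 1, and to 0 when only the 2 groups were fitted. Under TC 2 members were lower without TC replicate 3, and under ETO 1 was lower without ETO replicate 1, 2 or 3 and 0 without ETO+SR-3420 replicate 2 or 3, while a fit to only the 2 groups gave 3 higher and 0 lower.

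**Figure D1:**
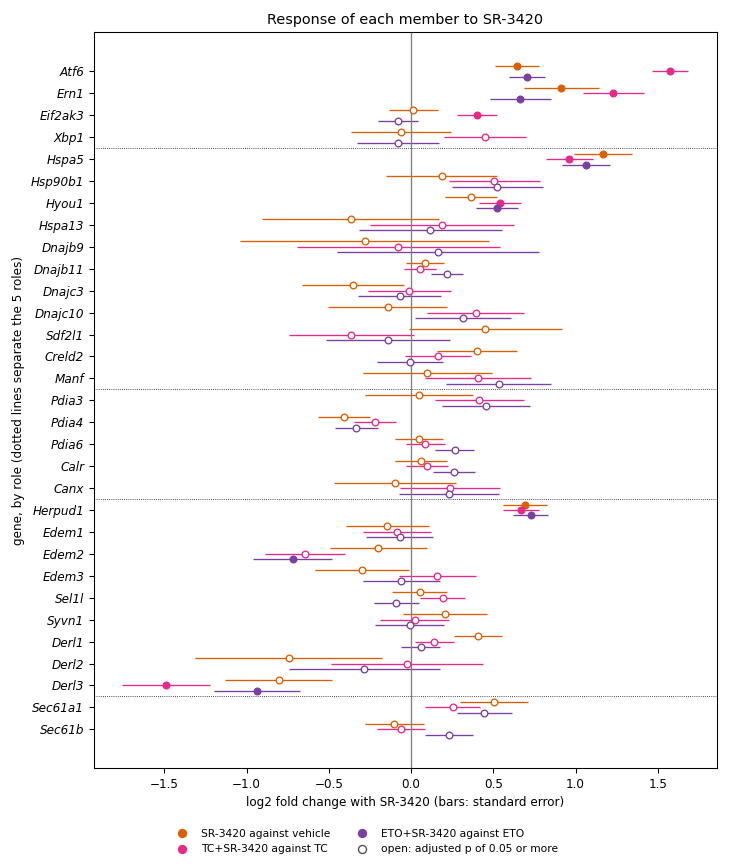
Log2 fold change of each of the 31 members with SR-3420 (x axis) by gene and role (y axis), without inhibitor, under TC and under ETO. Filled points passed the test, open points did not, and bars give the standard error. Atf6, Ern1, Hspa5 and Herpud1 are filled on the right in each of the 3 comparisons, and Derl3 lies on the left.

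Atf6 and Ern1 were the sensors that passed the test in each SR-3420 comparison. Atf6 (NM_001081304, chr1:172634588-172797902, minus strand, with all positions in mm9) stood at 89.0 and 97.8 CPM with vehicle, 145 and 146 with SR-3420, 66.4, 56.8 and 60.2 with TC, 173, 177 and 196 with TC+SR-3420, 94.5, 96.1 and 111 with ETO, and 154, 172 and 165 with ETO+SR-3420. All samples with SR-3420 were above all samples without it, and the TC samples were the lowest. Atf6 rose with SR-3420 by a log2FC of 0.64 ± 0.13 (adjusted p = 0.0105) without inhibitor, 1.57 ± 0.11 (adjusted p = 9.73e-07) under TC and 0.70 ± 0.11 (adjusted p = 0.000501) under ETO. Without inhibitor the call was lost when any 1 of the 4 samples was left out, with log2FC values of 0.58 to 0.72 and adjusted p-values of 0.0524 (SR-3420 replicate 3), 0.0532 (vehicle replicate 3), 0.0639 (SR-3420 replicate 1) and 0.101 (vehicle replicate 2), and also when only the 2 groups were fitted (0.61, adjusted p = 0.282).

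Ern1 (NM_023913, chr11:106258934-106349110, minus strand), which encodes the kinase and RNase IRE1, was at 50.6 and 39.0 CPM with vehicle, 88.7 and 80.1 with SR-3420, 40.4, 40.4 and 41.4 with TC, 110.3, 100.0 and 76.4 with TC+SR-3420, 57.6, 51.9 and 38.6 with ETO, and 84.8, 87.6 and 62.5 with ETO+SR-3420. The samples with SR-3420 again lay above those without it, and the gap was narrowest between 57.6 CPM in ETO replicate 1 and 62.5 in ETO+SR-3420 replicate 3. Its log2FC with SR-3420 was 0.91 ± 0.23 (adjusted p = 0.0285) without inhibitor, 1.23 ± 0.19 (adjusted p = 0.000237) under TC and 0.66 ± 0.18 (adjusted p = 0.0183) under ETO. Without inhibitor the call was lost without vehicle replicate 2 (1.11, adjusted p = 0.0641), vehicle replicate 3 (0.74, 0.212), SR-3420 replicate 1 (0.84, 0.149) or SR-3420 replicate 3 (0.99, 0.0683). Under ETO it was lost without ETO replicate 3 (0.52, adjusted p = 0.0595), ETO+SR-3420 replicate 1 (0.60, 0.0514) or ETO+SR-3420 replicate 2 (0.58, 0.0796). Both calls were also lost when only the 2 groups were fitted (0.89, adjusted p = 0.19 without inhibitor, and 0.65, adjusted p = 0.0934 under ETO).

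Eif2ak3 (NM_010121, chr6:70794521-70855234, plus strand), the gene of PERK, was at 46.4 and 42.7 CPM with vehicle, 49.5 and 40.4 with SR-3420, 32.3, 33.8 and 35.4 with TC, 47.6, 43.2 and 43.4 with TC+SR-3420, 48.3, 44.5 and 48.2 with ETO, and 50.8, 40.0 and 42.8 with ETO+SR-3420. The TC samples were below all others, and the remaining groups overlapped. Eif2ak3 was higher with SR-3420 under TC, with a log2FC of 0.40 ± 0.12 (adjusted p = 0.0198), and was not called without inhibitor (0.01 ± 0.15, adjusted p = 0.974) or under ETO (-0.08 ± 0.12, adjusted p = 0.688). The call under TC was lost without TC replicate 1 (0.37, adjusted p = 0.069), TC replicate 2 (0.40, 0.0575) or TC+SR-3420 replicate 1 (0.36, 0.0697).

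Xbp1, whose spliced transcript encodes the transcription factor of the IRE1 branch, was at 159 and 198 CPM with vehicle, 126 and 216 with SR-3420, 127, 122 and 148 with TC, 138, 174 and 230.0 with TC+SR-3420, 142, 183 and 220.1 with ETO, and 132, 169 and 215 with ETO+SR-3420. Replicate 3 was the highest sample of Xbp1 in each of the 6 groups, and the groups with and without SR-3420 overlapped. Xbp1 was not called, with log2FC values of -0.06 ± 0.30 (adjusted p = 0.937) without inhibitor, 0.45 ± 0.25 (adjusted p = 0.178) under TC and -0.08 ± 0.25 (adjusted p = 0.855) under ETO. Counts per gene do not separate its spliced from its unspliced form.

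Of the 4 sensors and transducers, 2 were thus higher without inhibitor (median log2FC 0.33), 3 under TC (0.84) and 2 under ETO (0.29). Over all genes, 4.75%, 17.3% and 12.5% were higher in these comparisons.

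Among the 11 chaperones and co-chaperones, Hspa5 and Hyou1 passed the test. Hspa5 (NM_001163434, chr2:34627610-34632049, plus strand), which encodes the Hsp70 chaperone BiP and has the ERSE shown above, was at 893 and 836 CPM with vehicle, 2293 and 1582 with SR-3420, 1214, 1352 and 1166 with TC, 2230, 2370 and 2673 with TC+SR-3420, 944, 879 and 932 with ETO, and 1909, 2071 and 1780 with ETO+SR-3420. Its counts ran from 9066 to 47554 a sample. All samples with SR-3420 were above all samples without it, and the TC samples lay above those of vehicle and ETO. Hspa5 rose with SR-3420 by a log2FC of 1.16 ± 0.18 (adjusted p = 0.0016) without inhibitor, 0.96 ± 0.14 (adjusted p = 0.000206) under TC and 1.06 ± 0.14 (adjusted p = 0.000202) under ETO, which are folds of 2.24, 1.95 and 2.09. When only the 2 groups were fitted, its call without inhibitor was lost (1.14, adjusted p = 0.182). In the authors' counting, reads with the same start and length counted once, which can put a ceiling on a short and abundant transcript. Hspa5 had up to 47554 counts over 2534 counted bases, and whether a ceiling acted on it was not tested.

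Hyou1 (NM_021395, chr9:44187573-44200452, plus strand), a large Hsp70 relative that acts as a nucleotide exchange factor for BiP, was at 165 and 158 CPM with vehicle, 198 and 218 with SR-3420, 184, 178 and 184 with TC, 262, 277 and 255 with TC+SR-3420, 169.7, 165 and 134 with ETO, and 233, 255 and 186 with ETO+SR-3420. Again no sample without SR-3420 reached a sample with it, though the closest values, 184 CPM with TC and 186 in ETO+SR-3420 replicate 3, almost met. It was higher with SR-3420 by a log2FC of 0.54 ± 0.13 (adjusted p = 0.00501) under TC and 0.52 ± 0.13 (adjusted p = 0.00909) under ETO, and was not called without inhibitor (0.36 ± 0.16, adjusted p = 0.188). The call under ETO was lost when only the 2 groups were fitted (0.51, adjusted p = 0.115).

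**Figure D2:**
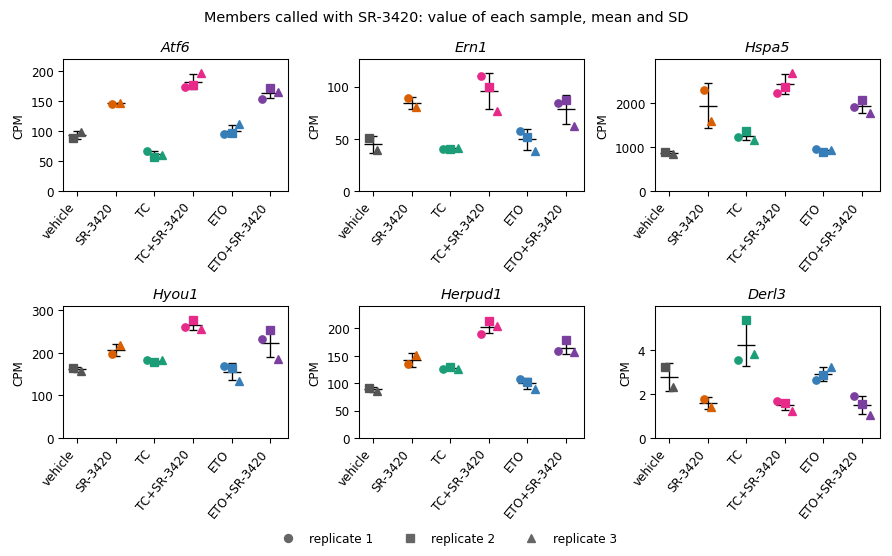
Level in CPM (y axis) of members that passed the test with SR-3420, in each sample by group (x axis). Points are samples, shaped by replicate number, and bars give the mean and SD of a group (n = 2 for vehicle and SR-3420, n = 3 for the others). For Atf6, Ern1, Hspa5, Hyou1 and Herpud1 the SR-3420 samples lie above the others, and for Derl3 below them.

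The remaining 9 chaperones and co-chaperones were not called by edgeR in the SR-3420 comparisons, and DESeq2 called 1 of them, Dnajb11, as higher under ETO. Hsp90b1, which encodes the Hsp90 chaperone GRP94, was at 546 and 799.9 CPM with vehicle, 589.5 and 941 with SR-3420, 816, 657 and 810.1 with TC, 837, 1004 and 1398 with TC+SR-3420, 543, 696 and 925 with ETO, and 712, 1173 and 1229 with ETO+SR-3420. All TC+SR-3420 samples were above all TC samples, while the groups overlapped without inhibitor and under ETO. Its log2FC was 0.19 ± 0.34 (adjusted p = 0.804) without inhibitor, 0.50 ± 0.28 (adjusted p = 0.172) under TC and 0.53 ± 0.28 (adjusted p = 0.189) under ETO.

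Dnajb9, a J-domain partner of BiP (ERdj4), was at 33.5 and 74.2 CPM with vehicle, 25.5 and 62.9 with SR-3420, 69.7, 44.0 and 68.0 with TC, 31.7, 46.4 and 94.3 with TC+SR-3420, 31.3, 49.4 and 117 with ETO, and 29.8, 54.3 and 138 with ETO+SR-3420. Within ETO+SR-3420 its highest sample was 4.63 times its lowest, the widest spread of any member within a group, and all groups overlapped. Its log2FC was -0.28 ± 0.76 (adjusted p = 0.872) without inhibitor, -0.08 ± 0.62 (adjusted p = 0.93) under TC and 0.17 ± 0.61 (adjusted p = 0.882) under ETO.

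Hspa13, an Hsp70 relative of microsomes, was at 32.8 and 62.3 CPM with vehicle, 23.8 and 49.9 with SR-3420, 64.5, 38.5 and 54.6 with TC, 45.1, 50.9 and 83.2 with TC+SR-3420, 36.3, 46.9 and 94.2 with ETO, and 36.4, 63.3 and 92.8 with ETO+SR-3420. Replicate 3 was the highest sample of Hspa13 in all groups except TC, and the groups overlapped in each SR-3420 comparison. Sdf2l1, a partner of BiP and its J-domain proteins, was at 41.9 and 25.3 CPM with vehicle, 60.5 and 31.4 with SR-3420, 36.6, 50.6 and 31.5 with TC, 37.8, 32.4 and 22.0 with TC+SR-3420, 53.6, 34.1 and 21.5 with ETO, and 45.3, 32.8 and 21.0 with ETO+SR-3420. For this gene replicate 3 was the lowest sample of every group, and the groups overlapped. Creld2, a secreted ER protein induced by ER stress, was at 75.8 and 61.1 CPM with vehicle, 109 and 72.3 with SR-3420, 62.9, 76.3 and 62.1 with TC, 81.5, 77.8 and 66.1 with TC+SR-3420, 87.4, 68.8 and 57.3 with ETO, and 83.3, 72.4 and 56.9 with ETO+SR-3420. Here too replicate 3 was the lowest of every group, and the groups overlapped. Manf, a secreted neurotrophic factor held in the ER, was at 61.6 and 88.1 CPM with vehicle, 59.8 and 101 with SR-3420, 98.9, 74.5 and 103 with TC, 86.1, 110.0 and 169.8 with TC+SR-3420, 57.8, 88.3 and 102 with ETO, and 75.1, 146 and 138 with ETO+SR-3420. Its groups overlapped, and its largest log2FC with SR-3420 was 0.53 ± 0.32 (adjusted p = 0.252), under ETO. The J-domain co-chaperones Dnajb11, Dnajc3 and Dnajc10 ranged over the 16 samples from 77.6 to 100.3, 69.6 to 149 and 47.8 to 112 CPM. By edgeR Dnajb11 had a log2FC of 0.22 ± 0.10 (adjusted p = 0.113) under ETO.

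Of the 5 disulfide isomerases and lectin chaperones, 0 were called in either direction by edgeR in the SR-3420 comparisons, beside the shares of all genes given above. At an unadjusted p under 0.05 the counts higher and lower were 0 and 1 without inhibitor, 0 and 0 under TC and 1 and 1 under ETO, and DESeq2 called 0 and 0, 0 and 0, and 0 and 1. Calr, the calcium-binding lectin chaperone calreticulin, was at 1022 and 1064 CPM with vehicle, 987 and 1188 with SR-3420, 1329, 1268 and 1324 with TC, 1242, 1424 and 1523 with TC+SR-3420, 1026, 1047 and 1130 with ETO, and 1136, 1468 and 1235 with ETO+SR-3420. Its ETO+SR-3420 samples lay above its ETO samples, and the other SR-3420 groups overlapped with their controls. The log2FC of Calr under ETO was 0.26 ± 0.13 (adjusted p = 0.156). Canx, the membrane-bound lectin chaperone calnexin, was at 282 and 447 CPM with vehicle, 269 and 412 with SR-3420, 407, 330.2 and 456 with TC, 378, 430.1 and 598 with TC+SR-3420, 289, 356 and 555 with ETO, and 308, 499 and 601 with ETO+SR-3420. Replicate 3 was the highest sample of Canx in every group, and the groups overlapped. The isomerases Pdia3, Pdia4 and Pdia6, which form and rearrange disulfide bonds, ranged over the samples from 206 to 494, 226 to 367 and 258 to 361 CPM. Pdia4 lay below its control samples in each SR-3420 comparison without passing edgeR's test, while DESeq2 called it lower under ETO, at an edgeR log2FC of -0.41 ± 0.16 (adjusted p = 0.143) without inhibitor, -0.22 ± 0.13 (adjusted p = 0.204) under TC and -0.33 ± 0.13 (adjusted p = 0.0762) under ETO. Pdia6 overlaps Atp6v1c2 on the opposite strand, and the strand used in counting is not given, so that their reads cannot be told apart.

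Among the 9 ERAD members, Herpud1 was higher, and Derl3 and Edem2 were lower under an inhibitor. Herpud1 (NM_022331, chr8:96910400-96919258, plus strand), a membrane protein that gathers the ERAD complex around the ligase encoded by Syvn1, was at 91.9 and 85.6 CPM with vehicle, 134 and 152 with SR-3420, 127, 130.0 and 127 with TC, 191, 214 and 204 with TC+SR-3420, 108, 102 and 89.2 with ETO, and 159, 179 and 158 with ETO+SR-3420. All samples with SR-3420 were above all samples without it, and the TC samples were above those of vehicle and ETO. Its log2FC with SR-3420 was 0.69 ± 0.13 (adjusted p = 0.00666) without inhibitor, 0.67 ± 0.11 (adjusted p = 0.000359) under TC and 0.73 ± 0.11 (adjusted p = 0.000371) under ETO. Without inhibitor the call was lost without vehicle replicate 3 (0.65, adjusted p = 0.0732) or SR-3420 replicate 3 (0.60, 0.0533), and when only the 2 groups were fitted (0.66, adjusted p = 0.253).

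Derl3 (NM_024440, chr10:75356143-75358686, plus strand), a derlin of the channel through which ERAD substrates leave the ER, was at 3.22 and 2.31 CPM with vehicle, 1.77 and 1.40 with SR-3420, 3.55, 5.33 and 3.79 with TC, 1.67, 1.60 and 1.22 with TC+SR-3420, 2.63, 2.84 and 3.23 with ETO, and 1.89, 1.53 and 1.06 with ETO+SR-3420, which are 13 to 78 counts a sample. The samples with SR-3420 were below all samples without it, and the TC samples were the highest. Derl3 was lower with SR-3420, with a log2FC of -1.49 ± 0.27 (adjusted p = 0.000786) under TC and -0.94 ± 0.26 (adjusted p = 0.0187) under ETO, and was not called without inhibitor (-0.81 ± 0.32, adjusted p = 0.161). Under ETO the call was lost without ETO replicate 3 (-0.85, adjusted p = 0.0516), ETO+SR-3420 replicate 2 (-0.95, 0.0537) or ETO+SR-3420 replicate 3 (-0.74, 0.0617), and when only the 2 groups were fitted (-0.96, adjusted p = 0.0879).

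Edem2 (NM_145537, chr2:155527409-155555211, minus strand), which starts the trimming of mannose from misfolded glycoproteins, was at 53.8 and 41.0 CPM with vehicle, 48.3 and 34.2 with SR-3420, 38.8, 44.0 and 30.9 with TC, 27.9, 24.8 and 20.0 with TC+SR-3420, 60.1, 47.8 and 33.1 with ETO, and 35.3, 27.4 and 23.0 with ETO+SR-3420. Replicate 3 was the lowest sample of every group, the TC+SR-3420 samples lay below the TC samples, and the ETO groups overlapped. Edem2 was lower under ETO, with a log2FC of -0.72 ± 0.24 (adjusted p = 0.0439), and was not called under TC (-0.64 ± 0.24, adjusted p = 0.0529) or without inhibitor (-0.20 ± 0.29, adjusted p = 0.753). A fit to only the 2 groups called it lower under TC. The call under ETO was lost without ETO replicate 1 (-0.50, adjusted p = 0.175), ETO replicate 2 (-0.71, 0.103), ETO+SR-3420 replicate 2 (-0.69, 0.13) or ETO+SR-3420 replicate 3 (-0.58, 0.13), and when only the 2 groups were fitted (-0.73, adjusted p = 0.122).

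Edem1, a mannosidase-like protein that delivers glycoproteins to ERAD, was at 103 and 142 CPM with vehicle, 94.6 and 127 with SR-3420, 109.7, 103 and 127 with TC, 90.9, 98.1 and 131 with TC+SR-3420, 108, 122 and 150.0 with ETO, and 95.8, 119 and 148 with ETO+SR-3420. Replicate 3 was the highest sample of Edem1 in every group, and the groups overlapped. Sel1l, the adaptor that holds the Syvn1 ligase complex together, was at 125 and 141 CPM with vehicle, 129 and 147 with SR-3420, 125, 107 and 121 with TC, 121, 130.0 and 151 with TC+SR-3420, 135, 142 and 173 with ETO, and 124, 143 and 156 with ETO+SR-3420. Its groups overlapped as well, and its log2FC was 0.05 ± 0.17 (adjusted p = 0.894) without inhibitor, 0.19 ± 0.14 (adjusted p = 0.293) under TC and -0.09 ± 0.14 (adjusted p = 0.679) under ETO. The other ERAD members, Edem3, the ubiquitin ligase gene Syvn1, Derl1 and Derl2, ranged from 52.4 to 113, 72.6 to 136, 191 to 309 and 11.9 to 45.2 CPM and were not called. Derl1 lay above vehicle in both SR-3420 samples without inhibitor, with a log2FC of 0.41 ± 0.14 (adjusted p = 0.11), and was called there by DESeq2. Syvn1 overlaps Mrpl49 and Derl2 overlaps Mis12 on the opposite strand, so that their reads cannot be told apart either.

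The 2 translocon members, subunits of the channel through which new proteins enter the ER, were not called. Sec61a1 ranged from 331 to 657 CPM and Sec61b from 20.7 to 36.5. At an unadjusted p under 0.05 edgeR gave 1, 0 and 1 of them higher without inhibitor, under TC and under ETO, and DESeq2 called 0, 0 and 1. The log2FC of Sec61a1 was 0.50 ± 0.21 (adjusted p = 0.165) without inhibitor, 0.25 ± 0.17 (adjusted p = 0.255) under TC and 0.44 ± 0.17 (adjusted p = 0.0679) under ETO.

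Per kb of counted length, the levels of the members spanned from 2.07 CPM per kb for Derl3 to 537 for Calr in the vehicle mean. Hspa5 followed Calr at 341 CPM per kb, then Hsp90b1 at 244. In the SR-3420 samples the mean of Hspa5 was 765 CPM per kb, with TC 491, with TC+SR-3420 957, with ETO 362 and with ETO+SR-3420 758. The sensors Atf6, Ern1 and Eif2ak3 were low, at 12.5, 11.3 and 9.90 CPM per kb in the vehicle mean.

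**Figure D3:**
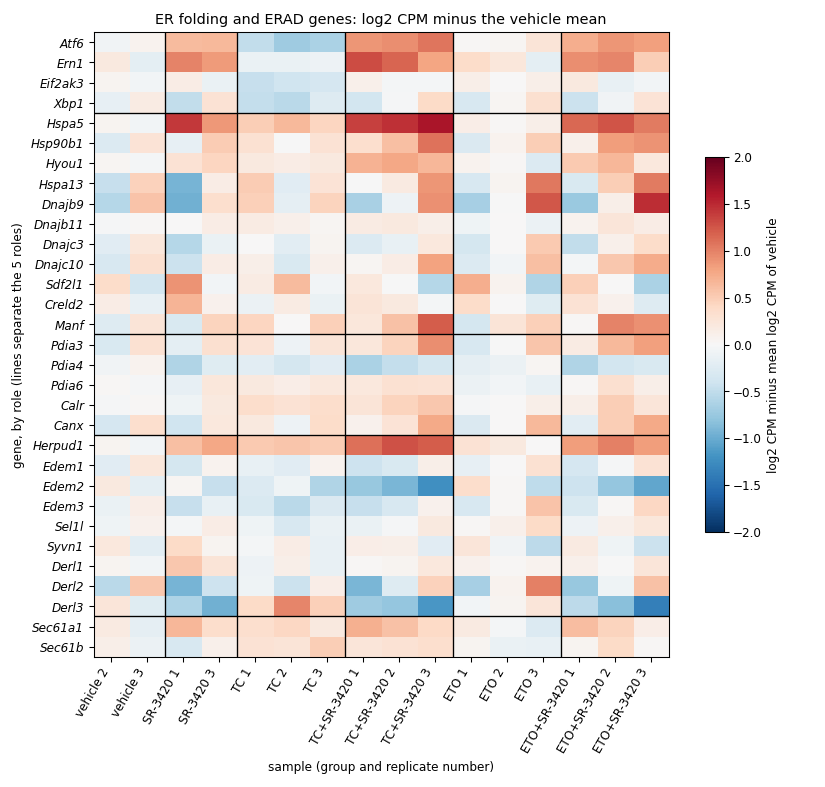
Level of each of the 31 members (y axis, by role) in each of the 16 samples (x axis, by group), as log2 CPM minus the gene's mean log2 CPM with vehicle. Atf6, Ern1, Hspa5, Hyou1 and Herpud1 are high in the columns with SR-3420, and other members, such as Dnajb9 and Sdf2l1, differ more between the samples of a group.

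The inhibitors alone were compared with vehicle, the samples that also serve as the control of SR-3420 without inhibitor, so the values stand side by side and are not independent. With TC, 1 member was higher against 4.77% of all genes and 1 was lower against 6.94%, and the members' median log2FC was 0.11 beside 0.07 over all genes. Herpud1 was higher, at 127, 130.0 and 127 CPM beside 91.9 and 85.6 with vehicle, a log2FC of 0.53 ± 0.12 (adjusted p = 0.0119). Atf6 was lower, at 66.4, 56.8 and 60.2 CPM beside 89.0 and 97.8, a log2FC of -0.61 ± 0.12 (adjusted p = 0.00434). In both genes the groups did not overlap. The TC samples of Hspa5 were above and those of Eif2ak3 and Xbp1 below vehicle without passing the test, with log2FC values of 0.53 ± 0.16 (adjusted p = 0.0511), -0.40 ± 0.14 (adjusted p = 0.0791) and -0.43 ± 0.28 (adjusted p = 0.398). DESeq2 also called Hspa5 higher and Eif2ak3 lower. The call of Herpud1 was lost without vehicle replicate 2 (0.57, adjusted p = 0.0567) or vehicle replicate 3 (0.47, 0.129), and that of Atf6 without vehicle replicate 3 (-0.54, 0.0667).

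With ETO alone, 0 members were higher against 0.0156% of all genes and 0 were lower against 0.00782%. At an unadjusted p under 0.05 edgeR gave 0 and 0, and DESeq2 called 0 and 0. The members' median log2FC was 0.09 beside 0.01 over all genes, and their values ran from -0.11 for Pdia6 to 0.32 for Hspa13.

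With SR-3420 present, the groups with and without an inhibitor were compared to see what each inhibitor added. In TC+SR-3420 against SR-3420, 1 member was higher against 1.02% of all genes and 0 were lower against 3.55% (2 lower at an unadjusted p under 0.05 by edgeR, and 0 by DESeq2). The median was 0.22 beside 0.02 over all genes. Herpud1 was higher, at 191, 214 and 204 CPM beside 134 and 152, a log2FC of 0.50 ± 0.12 (adjusted p = 0.0317). The groups did not overlap, but the call was lost when any 1 of the 5 samples was left out, with values of 0.41 without SR-3420 replicate 1 (adjusted p = 0.359), 0.59 without SR-3420 replicate 3 (0.059), 0.55 without TC+SR-3420 replicate 1 (0.0541), 0.46 without TC+SR-3420 replicate 2 (0.0784) and 0.50 without TC+SR-3420 replicate 3 (0.0955). Without the filter on low counts its adjusted p was 0.057. DESeq2 also called Atf6 and Calr higher, for which edgeR gave 0.32 ± 0.12 (adjusted p = 0.165) and 0.36 ± 0.14 (adjusted p = 0.188). The adipocyte markers Plin1, Adipoq and Lipe were lower in the same comparison, and their part in the call of Herpud1 was not tested.

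In ETO+SR-3420 against SR-3420, 0 members were higher against 0% of all genes and 0 were lower against 0.00782%. At an unadjusted p under 0.05 edgeR gave 0 higher and 1 lower, and DESeq2 called 0 and 0. The members' median log2FC was 0.11 beside -0.00 over all genes.

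The difference between 2 responses to SR-3420 was tested as such. The response under TC minus that without inhibitor was positive for 1 member against 1.24% of all genes, and negative for 0 members against 1.27% (0 at an unadjusted p under 0.05 by edgeR, and 0 by DESeq2). The member is Atf6, with a difference of 0.93 ± 0.17 (adjusted p = 0.0142) on the log2 scale. Its mean was 61.1 CPM with TC and 182 with TC+SR-3420, beside 93.4 with vehicle and 146 with SR-3420, so the TC samples started lower. Eif2ak3, which among the SR-3420 comparisons was called under TC, did not pass the test of the difference (0.39 ± 0.19, adjusted p = 0.333), nor did Derl3 (-0.69 ± 0.42, adjusted p = 0.436) or Hyou1 (0.18 ± 0.20, adjusted p = 0.662). The call of Atf6 was lost without vehicle replicate 3 (0.86, adjusted p = 0.096) or SR-3420 replicate 1 (0.93, 0.0774).

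The response under ETO minus that without inhibitor was positive for 0 members against 0% of all genes and negative for 0 against 0%, and at an unadjusted p under 0.05 edgeR gave 0 and 0 and DESeq2 called 0 and 0. The differences for Atf6, Ern1, Hspa5 and Herpud1 were 0.06, -0.25, -0.10 and 0.04 on the log2 scale. The response under TC minus that under ETO was positive for 1 member, Atf6, against 1.52% of all genes and negative for 0 members against 0.774% (0 at an unadjusted p under 0.05 by edgeR, and 0 by DESeq2). The difference for Atf6 was 0.87 ± 0.15 (adjusted p = 0.00988), and Ern1 (0.57 ± 0.26, adjusted p = 0.394) and Eif2ak3 (0.48 ± 0.17, adjusted p = 0.212) did not pass. The summed adipocyte markers given above were also lower in TC+SR-3420 than in the other SR-3420 groups except for 1 ETO+SR-3420 sample, and their part in the difference of Atf6 was not tested.

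Some members also varied widely among the samples of a group. Over 2-fold within a group were 4 of the 31, namely Dnajb9 (up to 4.63), Derl2 (3.16), Hspa13 (2.59) and Sdf2l1 (2.49). The share of all genes with such a spread was not counted, so this describes these members only. Replicate 3 was the highest sample in all 6 groups for 6 members (Xbp1, Dnajc3, Canx, Edem1, Edem3 and Derl2) and the lowest in all 6 for 5 (Sdf2l1, Creld2, Edem2, Syvn1 and Sec61a1). Over all 12786 genes the same held for 2096 (16.4%) and 2115 (16.5%). The labels do not say what the replicate number marks, and the p-values given here measure the spread between these samples of 1 cell line. Differences between replicate numbers are part of that spread, so a member not called is not shown to be unchanged. Calls of a fit that includes these numbers are given further below.

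**Figure D4:**
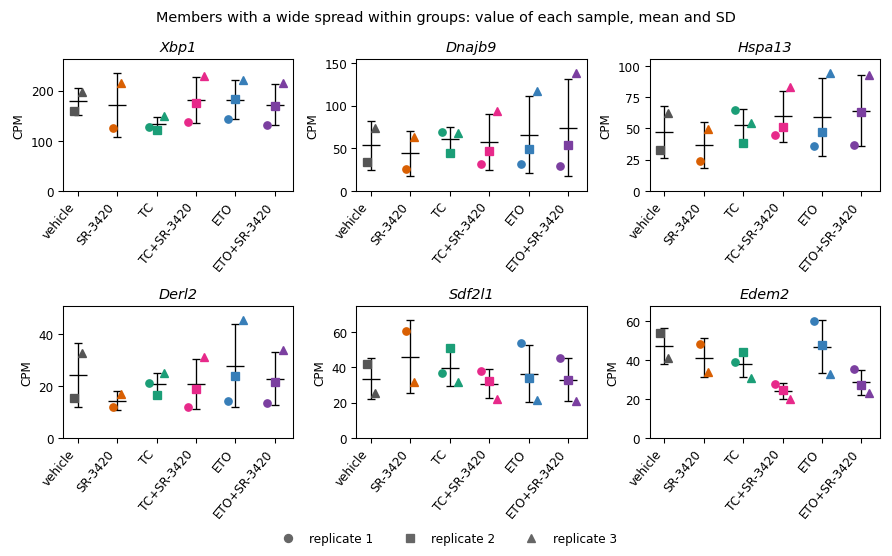
Level in CPM (y axis) of members with a wide spread within groups, in each sample by group (x axis), with the replicate number as the shape of the point and the mean and SD of each group as bars. The triangles of replicate 3 are the highest of every group for Xbp1 and Derl2 and the lowest of every group for Sdf2l1 and Edem2.

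Members with and without the promoter elements were found among the called genes. Of the 12 members with an ERSE or ERSE-II, 3 were higher (Hspa5, Hyou1 and Herpud1), 1 was lower (Derl3) and 8 were not called in any of the 3 SR-3420 comparisons. Of the 19 members without either element, 3 were higher (Atf6, Ern1 and Eif2ak3), 1 was lower (Edem2) and 15 were not called. These calls are edgeR's, and DESeq2 called the same members and 4 more of the 19 (Derl1, Dnajb11 and Sec61a1 higher and Pdia4 lower). Of all 12786 genes, 20.8% were higher in at least 1 of the 3 comparisons and 23% lower, beside 19.4% and 6.45% of the 31 members. These counts are a description and no test was made of them.

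Other genes of the ER and of the response were read from lists of known parts, beside the members. Over all genes, 4.75% were higher without inhibitor, 17.3% under TC and 12.5% under ETO, and 2.79%, 19.7% and 12.8% were lower. Of 19 other ER folding genes, 2 were higher and 0 lower without inhibitor (0 lower at an unadjusted p under 0.05 by edgeR, and 0 by DESeq2), 4 higher and 1 lower under TC, and 5 higher and 1 lower under ETO. For these 19, DESeq2 called 4 higher without inhibitor, 5 higher and 0 lower under TC, and 6 higher and 1 lower under ETO. Ero1l, the oxidase that recharges disulfide isomerases, had the largest log2FC of those called, 1.92 ± 0.50 without inhibitor, 1.82 ± 0.41 under TC and 2.31 ± 0.41 under ETO. Of 17 other ERAD genes, 1 was higher and 0 lower without inhibitor (2 lower at an unadjusted p under 0.05 by edgeR, and 0 by DESeq2), 2 higher and 1 lower under TC, and 2 higher and 1 lower under ETO, while over the 3 comparisons DESeq2 called 1, 3 and 2 higher and 0, 1 and 1 lower. The ubiquitin-conjugating enzyme gene Ube2g2 was higher in each of these (0.70 ± 0.17, 0.55 ± 0.14 and 0.54 ± 0.14), and the ligase gene Rnf5 was lower under TC (-0.82 ± 0.16) and ETO (-0.62 ± 0.16). Of 16 genes of translocation and signal peptide cleavage, 1 was higher (Sec11a, 0.32 ± 0.10) and 1 lower (Ssr4, -0.34 ± 0.13) under TC, where DESeq2 called 2 higher and 2 lower. Without inhibitor and under ETO 0 of these 16 were called by edgeR (2 higher and 0 lower at an unadjusted p under 0.05 in each, while DESeq2 called 0 and 1 higher and 0 lower). Of 7 oligosaccharyltransferase genes, the catalytic subunits Stt3a (0.64 ± 0.21) and Stt3b (0.48 ± 0.10) were higher under TC, where DESeq2 also called 2 higher. Without inhibitor and under ETO 0 of these 7 were called (0 and 1 higher and 0 lower at an unadjusted p under 0.05 by edgeR, and 0 by DESeq2).

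The targets of ATF4, which were left out of the members, were read in the same way, beside the same shares of all genes. Of 16 such genes, 11 were higher without inhibitor, 12 under TC and 11 under ETO (11, 13 and 11 by DESeq2), with median log2FC values of 0.91, 0.81 and 0.79, beside the members' 0.05, 0.16 and 0.17. By edgeR 0 of the 16 were lower in these comparisons (0 at an unadjusted p under 0.05, and 0 by DESeq2). Atf3, a stress-induced transcription factor, had a log2FC of 3.64 ± 0.18 without inhibitor, 2.20 ± 0.14 under TC and 3.34 ± 0.15 under ETO. Slc7a11, the cystine transporter, had 2.31 ± 0.48, 3.25 ± 0.39 and 1.99 ± 0.37. With TC alone 5 of the 16 were higher (7 by DESeq2) against 4.77% of all genes. Among them were Atf3 at 2.61 ± 0.17 and Atf4 itself at 0.67 ± 0.13. The difference between the response under TC and that without inhibitor was positive for Atf6 and negative for Atf3 (-1.45 ± 0.22, adjusted p = 0.00494). The TC samples of Atf3 started higher than vehicle. Its level in TC+SR-3420 was above that in SR-3420 (1.165 ± 0.15, adjusted p = 0.00175 by edgeR). Of 24 markers of the response that the study itself used, 15 were higher in each of the 3 comparisons (16 in each by DESeq2), and 0, 1 and 1 were lower (without inhibitor 0 at an unadjusted p under 0.05 by edgeR, and 0 by DESeq2). That list was chosen by the study, includes the members Hspa5, Derl1 and Dnajb9, and is not independent evidence of its direction.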

How the data were processed

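RNA-seq of 16 samples in 6 groups was used. The deposited values are raw counts per gene, made by the authors with STAR 2.4.2a on mm9, HOMER (version not given for the RNA-seq), which kept 1 read per position and length, and iRNA-seq. In R 4.3.3, edgeR 4.0.16 (with limma 3.58.1) was fitted to all genes that passed filterByExpr by group, with TMM scaling and 1 mean per group, and 10 contrasts were tested with the quasi-likelihood test and Benjamini-Hochberg over the 12786 genes tested. Total counts ran from 9452861 to 25670624 a sample, and the precision of a value is given by its standard error. The alternatives were RLE scaling, no filter, DESeq2 1.42.0, only the 2 groups compared, a log2 fold change of at least 1, a replicate block and leaving out each sample. Sample values are given for 18 members fixed by name and for others where called. Of each list of other genes at most the 4 called genes with the largest change per comparison are named. Members and lists were chosen with earlier results of these data known. Promoter windows were read from mm9 by position with Python 3.11.15, and figures were drawn with matplotlib 3.10.9. Protein sequences were not among the references at hand and were not read. The test was also run on simulated counts that held no differences between replicate numbers. That run therefore does not cover the replicate differences described above.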

Additional observations from a re-analysis of the deposited data

Results flagged for a closer look

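The response of Atf6 to SR-3420 differed between inhibitors by a test of the difference itself. Under TC the log2 fold change exceeded that without inhibitor by 0.93 (adjusted p = 0.0142 by edgeR's quasi-likelihood test, Benjamini-Hochberg over all genes tested) and that under ETO by 0.87 (adjusted p = 0.00988). The first call was lost without vehicle replicate 3 (0.86, adjusted p = 0.096) or SR-3420 replicate 1 (0.93, adjusted p = 0.0774), and the second was kept without any 1 sample. Its level rose from 66.4, 56.8 and 60.2 CPM with TC to 173, 177 and 196 with TC+SR-3420, so that 3 of 3 samples were above 3 of 3. Both differences share the TC groups, which started lower in Atf6 than vehicle (mean 61.1 beside 93.4 CPM). No group has 4 or more samples, so single samples far from the rest of their group were not tested for.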

How the results depend on the processing

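Of 242 counts of called members under the alternatives, 195 stayed within 1.5 times the reported count, 32 fell below it and 15 rose above it. The 195 include reported counts of 0 that stayed at 0. A count of 0 cannot fall, so the 195 overstate how stable the other counts were. Of 247 log2 fold changes of called members, 205 kept their call, 42 kept only their direction and 0 reversed. The cause of these differences was not tested, except that a fold minimum leaves fewer calls by construction.

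With only the 2 groups compared, SR-3420 against vehicle gave 0 members higher, TC+SR-3420 against TC 2 lower, and ETO+SR-3420 against ETO 3 higher and 0 lower. Hspa5 without inhibitor had a log2 fold change of 1.14 there (adjusted p = 0.182, the highest over its alternatives). With a log2 fold change of at least 1 also required, SR-3420 against vehicle gave 1 higher, TC+SR-3420 against TC 2 higher, ETO+SR-3420 against ETO 1 higher and 0 lower, TC against vehicle 0 higher and 0 lower, TC+SR-3420 against SR-3420 0 higher, and the response with TC minus without inhibitor and with TC minus with ETO 0 higher each. DESeq2 gave 2 higher and 2 lower for TC against vehicle and 3 higher for TC+SR-3420 against SR-3420. Without a filter on low counts TC+SR-3420 against SR-3420 gave 0 higher. RLE scaling changed no count by over 1.5 times, and neither it nor DESeq2's scaling moved the median of all genes by 0.1 on the log2 scale.

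With the replicate numbers as a replicate block, SR-3420 against vehicle gave 1 lower, TC+SR-3420 against TC 10 higher and 3 lower, ETO+SR-3420 against ETO 10 higher and 3 lower, TC against vehicle 3 higher and 3 lower, TC+SR-3420 against SR-3420 6 higher and 2 lower, and ETO+SR-3420 against SR-3420 3 higher and 1 lower. By this block Xbp1 was called higher and Edem2 lower under TC, and Pdia4 lower and Sec61a1 higher in each SR-3420 comparison. It also called Hsp90b1 and Pdia3 higher under TC and under ETO, and Manf and Pdia6 higher under ETO. The main fit made none of these calls. The residual profiles of samples with the same number correlated at 0.488 on average over 35 pairs (lowest -0.352) and those with different numbers at -0.242 over 71 pairs, and 12 of 16 samples correlated best with a sample of their own number. In each comparison of TC or ETO with and without SR-3420 a pair fell under 0.1 (-0.262 and 0.00864), so the numbers were not taken to pair the samples. Differences between the numbers therefore count as spread in the main fit, and a member that it did not call is not shown to be unchanged.

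Leaving out each sample in turn gave ranges of 1 to 2 members higher for SR-3420 against vehicle, 5 to 6 higher and 1 to 2 lower for TC+SR-3420 against TC, 4 to 6 higher and 0 to 2 lower for ETO+SR-3420 against ETO, 0 to 1 higher and 0 to 1 lower for TC against vehicle, 0 to 0 higher for TC+SR-3420 against SR-3420, 0 to 1 higher for the response with TC minus without inhibitor, and 1 to 1 higher for TC minus ETO. A group left with 1 sample is assumed to vary like the other groups. Depth limits Derl3 most among the members, with 13 to 78 counts a sample.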
